A study of Mus musculus with 16 samples.

Results

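Sox17 and 9 other genes used as marks of the blood or lymph vessel wall (Sox18, Pecam1, Cdh5, Cldn5, Kdr, Tek, Vwf, Eng and Prox1) were followed in whole lung RNA from 16 female mice of the inbred A/J strain, in which lung tumours are common. The members were all non-control probes that carry one of these 10 gene names in the array files, which gave 10 of 28100 names and 21 of 41174 distinct probes. Of these 21 probes, 19 were well above background in the sample's dye on all arrays of at least 1 group and were tested, among 30749 tested probes in all. Sox17 was picked for its lower value in mice given both agents, so its values in any comparison with that group are given as a description, with no test.

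The 4 groups held 4 mice each. NNK+SECY mice were given NNK (a tobacco-specific nitrosamine used to start lung tumours) and then feed with selenocystine (an amino acid that holds selenium). SECY mice were given selenocystine alone, NNK mice were given NNK alone, and Untreated mice were given neither. NNK was 1 intraperitoneal injection of 0.2 mL saline at 10 uM, and lungs were taken 13 days after it. Selenocystine was fed at 15 ppm for 10 days, from 3 days after the injection in NNK+SECY mice, and the basal diet of all 4 groups held 0.35 ppm selenium. All groups were of 1 strain and 1 sex, and the labels give no age. Each mouse is a biological replicate, per the labels. On each array the mouse's lung RNA carried Cy5 and a pool of equal parts of the 4 Untreated mice's RNA carried Cy3. No dyes were swapped. A value of 0 in log2(Cy5/Cy3) is therefore equal signal from the mouse and that pool, with any dye difference at a probe left in.

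Endothelial cells line the vessels, and in the lung most of them form the capillary net around the air sacs. Sox17, Sox18 and Sox7 make up the SoxF group of transcription factors, which act in vessel development, and among vessels Sox17 is known above all from arteries. Pecam1, Cdh5 and Cldn5 are proteins of the contacts between endothelial cells. Kdr and Tek are receptors for vascular endothelial growth factor and the angiopoietins, Eng is a co-receptor for the BMP and TGF-beta family, Vwf is a clotting protein stored by endothelium, and Prox1 is the factor that defines lymphatic endothelium. In whole lung RNA, fewer cells of a type and less RNA per cell cannot be told apart.

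Before normalization the array medians ran from 71.2 to 105 in Cy5 and from 67.5 to 93.4 in Cy3. Every NNK+SECY and SECY array lay above every Untreated array in both dyes. Their medians were at least 89.7 in Cy5 and 79.4 in Cy3, against at most 86.4 and 72.9 on Untreated arrays. NNK arrays, at 78.6 to 94.2 in Cy5 and 73 to 86 in Cy3, overlapped the selenocystine arrays. NNK+SECY and SECY arrays shared slides 5 to 8, while NNK and Untreated arrays shared slides 1 to 4, so the diet and the set of slides cannot be told apart. The share of spots well above background in Cy5 was 75.0 to 79.3% on slides 5 to 8 and 66.3 to 72.6% on slides 1 to 4. The arrays of both NNK-injected groups were scanned on 1 day and those of the SECY and Untreated groups on another, so NNK and scan day cannot be told apart either. Markers of lung epithelium were present, with 10 of 10 alveolar type 2 and 8 of 8 alveolar type 1 genes above background on every array of every group. All 14 endothelial markers were above background on every array.

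Sox17, the member the set was built around, had 4 probes, all placed on chromosome 1 by the array's annotation, which names no genome build. Probe 1 (A_52_P279368, 4451812 to 4451871) and probe 2 (A_51_P273667, 4452199 to 4452258) lie on the minus strand, start 387 bases apart and carry the same transcript accession. Probe 4 (A_52_P365096, 4455540 to 4455599) carries that accession too and starts 3728 bases from probe 1. Probe 3 (A_52_P1180325, 4459061 to 4459120) runs the other way, starts 7249 bases from probe 1 and belongs to another transcript record. Probes 1 and 2 were well above background in both dyes on 16 of 16 arrays. Probes 3 and 4 were above it on 11 arrays each in Cy5, and on 1 array and 2 arrays in Cy3, so they sit at the edge of detection.

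At probe 1, log2(Cy5/Cy3) was -0.48, -0.48, -0.42 and -0.39 in the 4 NNK+SECY mice and -0.40, -0.66, -0.23 and -0.52 in the 4 SECY mice. It was 0.00, 0.12, 0.00 and -0.02 in NNK mice and 0.18, -0.23, -0.12 and -0.01 in Untreated mice. All 4 NNK+SECY mice lay below all NNK and Untreated mice, and 1 SECY mouse, at -0.23, met the lowest Untreated mouse. The means were -0.44 ± 0.04 in NNK+SECY, -0.45 ± 0.18 in SECY, 0.02 ± 0.06 in NNK and -0.04 ± 0.17 in Untreated mice (SD, n = 4 each). In this order of levels the 2 selenocystine groups did not differ beyond their spread, and neither did the 2 groups without it.

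At probe 2, the values were -0.42, -0.43, -0.32 and -0.35 in NNK+SECY mice and -0.32, -0.52, -0.26 and -0.49 in SECY mice, against 0.02, 0.12, 0.09 and 0.02 in NNK mice and 0.13, -0.25, -0.11 and -0.03 in Untreated mice. Every selenocystine-fed mouse lay below every mouse without it, with the highest SECY mouse at -0.26 and the lowest Untreated mouse at -0.25. SECY mice lay wholly below Untreated mice at 2.17% of tested probes. The means were -0.38 ± 0.05 in NNK+SECY, -0.40 ± 0.13 in SECY, 0.06 ± 0.05 in NNK and -0.06 ± 0.16 in Untreated mice (SD, n = 4 each). Probes 1 and 2 followed each other over the 16 arrays (Pearson r = 0.98, a description over arrays that both probes share).

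**Figure D1:**
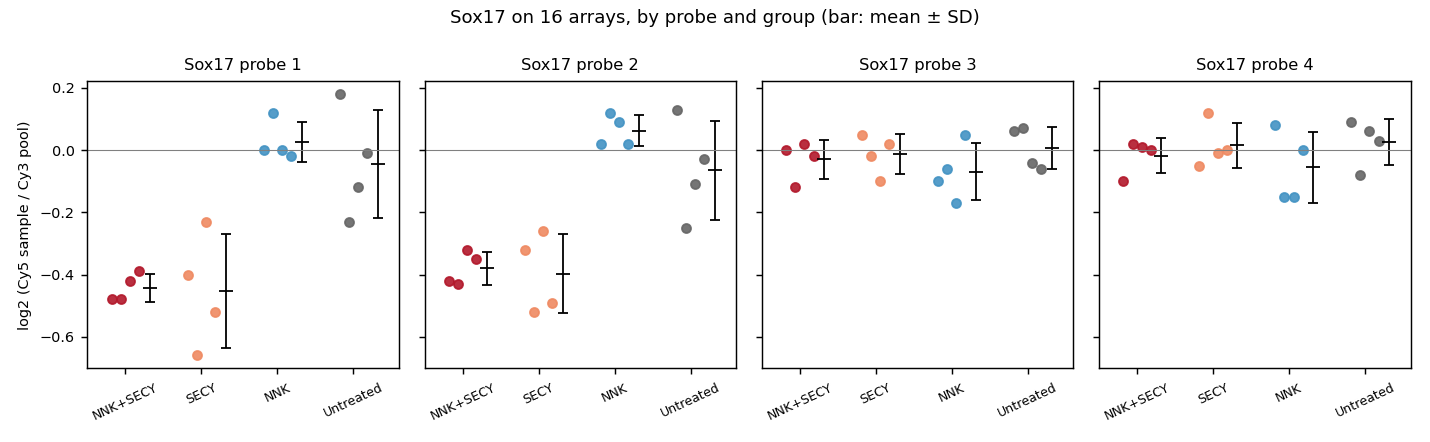
Log2(Cy5/Cy3) of each Sox17 probe (vertical axis, log2 units) by group (horizontal axis); each point is 1 mouse, and the bar is the mean ± SD of 4 mice. At probes 1 and 2 the NNK+SECY mice lie between -0.48 and -0.32 and all lie below the NNK mice, while probes 3 and 4 stay near 0 in all 4 groups.

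Between NNK+SECY and Untreated mice, the Sox17 difference was -0.40 (SE 0.09, a fold of 0.758) at probe 1 and -0.32 (SE 0.07, a fold of 0.802) at probe 2. Between NNK+SECY and NNK mice it was -0.47 (SE 0.09, a fold of 0.724) and -0.44 (SE 0.07, a fold of 0.736). These differences are the ones Sox17 was chosen on. Groups that do not overlap in the lower direction were found for 3.45% of tested probes in the first comparison and 4.6% in the second. NNK+SECY and SECY mice differed by 0.01 (SE 0.09) at probe 1 and 0.02 (SE 0.07) at probe 2. The departure from the sum of the separate differences was -0.06 (SE 0.12) at probe 1 and -0.11 (SE 0.10) at probe 2.

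Sox17 was not picked for its value in SECY mice, so the comparison of SECY with Untreated mice can be tested, although it shares its Untreated mice with one above. Sox17 was lower in SECY than in Untreated mice by a log2 difference of -0.41 at probe 1 (SE 0.09, 95% interval -0.59 to -0.23, a fold of 0.753) and -0.33 at probe 2 (SE 0.07, interval -0.49 to -0.18, a fold of 0.793). Neither probe passed limma's test with Benjamini-Hochberg adjustment over all probes, at adjusted p = 0.0559 and 0.0687, against a threshold of 0.05 that 0.283% of probes passed. Without SECY 3 the adjusted p was 0.00858 at probe 1 and 0.0326 at probe 2, without SECY 1 it was 0.0429 and 0.0396, and without Untreated 2 it was 0.0378 and 0.0335. Without SECY 2 it was 0.195 and 0.235, and without SECY 4 it was 0.18 and 0.241. Leaving out Untreated 1 gave 0.159 and 0.196, Untreated 3 gave 0.103 and 0.13, and Untreated 4 gave 0.142 and 0.165. From the authors' processed signals the adjusted p was 0.131 at probe 1 and 0.136 at probe 2. With the spread taken from the 8 arrays of these groups only, it was 0.42 and 0.44.

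In NNK mice Sox17 did not pass the test against Untreated mice, with differences of 0.07 (SE 0.09) at probe 1 and 0.12 (SE 0.07) at probe 2 and an adjusted p of 1 at each. In that comparison 0.211% of all probes passed. Within the 4 shared slides the NNK minus Untreated difference at probe 1 was -0.18, 0.34, 0.12 and -0.01, and at probe 2 it was -0.12, 0.36, 0.20 and 0.05. The NNK+SECY minus SECY difference within slides 5 to 8 was -0.08, 0.18, -0.19 and 0.12 at probe 1. The sign thus varied from slide to slide in both.

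The 2 dyes were also read apart, on log2 levels scaled between arrays. The Cy5 level of probe 1 averaged 10.25 ± 0.07 in NNK+SECY, 10.22 ± 0.19 in SECY, 10.67 ± 0.10 in NNK and 10.48 ± 0.13 in Untreated mice (SD, n = 4 each). The Cy3 level of the pool, the same RNA on every array, averaged 10.69 ± 0.06 on NNK+SECY, 10.67 ± 0.04 on SECY, 10.64 ± 0.04 on NNK and 10.53 ± 0.07 on Untreated arrays. The pool thus read 0.16 higher on NNK+SECY than on Untreated arrays at this probe, and the Cy5 level itself differed by -0.24, where the ratio differed by -0.40. Against NNK mice the Cy5 level of NNK+SECY mice differed by -0.42, and the pool by 0.05. At probe 2 the Cy5 level averaged 8.18 ± 0.07 in NNK+SECY, 8.02 ± 0.16 in SECY, 8.67 ± 0.08 in NNK and 8.53 ± 0.15 in Untreated mice. The pool averaged 8.56 ± 0.10 on NNK+SECY, 8.42 ± 0.03 on SECY, 8.61 ± 0.04 on NNK and 8.59 ± 0.02 on Untreated arrays. There the pool read lower by 0.17 on SECY than on Untreated arrays, and the Cy5 level differed by -0.51. Every NNK+SECY mouse lay below every NNK mouse in Cy5 at both probes. Sox17 was chosen on this comparison, and the share of all probes that do so in Cy5 was not counted.

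**Figure D2:**
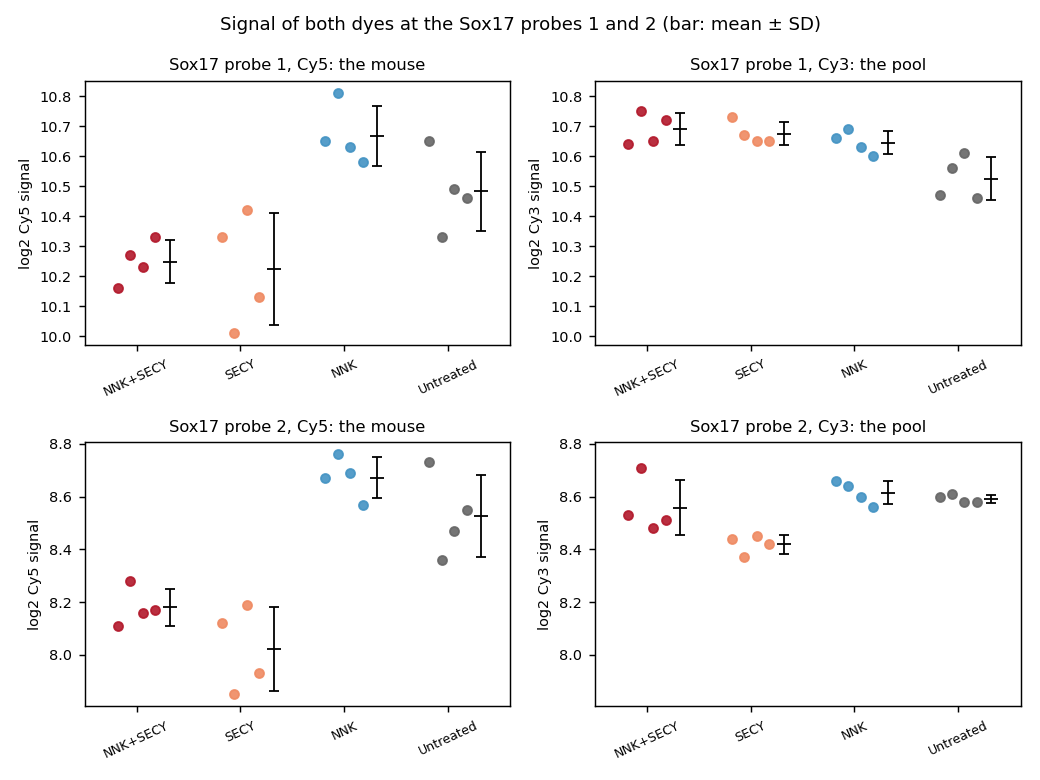
Log2 signal after normalization (vertical axes) of Sox17 probes 1 and 2 in the mouse's dye, Cy5 (left), and the pool's dye, Cy3 (right), by group; each point is 1 array, and the bar is the mean ± SD of 4. At probe 1 the Cy5 means are 10.25 in NNK+SECY and 10.67 in NNK mice, while the pool's means are 10.69 and 10.64 on the same arrays.

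The dim Sox17 probes 3 and 4 did not share this. Probe 3 averaged -0.03 ± 0.06 in NNK+SECY, -0.01 ± 0.07 in SECY, -0.07 ± 0.09 in NNK and 0.01 ± 0.07 in Untreated mice (SD, n = 4 each). Probe 4 averaged -0.02 ± 0.06 in NNK+SECY, 0.01 ± 0.07 in SECY, -0.05 ± 0.11 in NNK and 0.02 ± 0.08 in Untreated mice. Their raw Cy5 signals averaged 57 each. An offset of 50 was added to every signal after background correction, which pulls the ratio of so dim a probe towards 0. Their correlations with probe 1 were -0.16 and -0.13.

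Set against the mean of the 9 other genes on the same array, each at its probe of highest signal, Sox17 probe 1 stood at -0.44 ± 0.04 in NNK+SECY and -0.40 ± 0.10 in SECY mice, against 0.03 ± 0.07 in NNK and -0.07 ± 0.23 in Untreated mice (SD, n = 4 each). It was the lowest of the genes with a value on 3 NNK+SECY arrays, 4 SECY arrays, 0 NNK arrays and 1 Untreated array, where the array of SECY 2 has values for 9 of the 10, without Eng. Because Sox17 was picked for its lower value in NNK+SECY mice, its place on those arrays is only a description. The mean of the other 9 genes ran from -0.08 to 0.07 in NNK+SECY, from -0.15 to 0.08 in SECY, from -0.06 to 0.02 in NNK and from -0.06 to 0.13 in Untreated mice, and these ranges overlap. Of the 15 tested probes of the 9 other genes, 0 passed limma's test in any of the 6 comparisons. Among all tested probes, 1.44% passed in NNK+SECY against Untreated mice, 1.56% against NNK mice, 0.00651% against SECY mice and 0.00651% for the departure from additivity. Unadjusted p was under 0.05 for 1 of the 15 in NNK+SECY against Untreated mice (8.78% of all probes), 2 against NNK mice (9.8%) and 2 against SECY mice (6.08%). It was under 0.05 for 2 in SECY against Untreated mice (7.89%), 0 in NNK against Untreated mice (4.76%) and 1 for the departure from additivity (4.56%).

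Sox18, the SoxF member on chromosome 2, had 1 probe. It read -0.08, 0.24, 0.13 and -0.04 in NNK+SECY mice and 0.02, -0.17, 0.26 and -0.07 in SECY mice, against 0.21, -0.07, 0.12 and 0.16 in NNK mice and 0.16, 0.02, 0.22 and 0.21 in Untreated mice. All 4 groups overlapped. The differences were -0.14 in SECY against Untreated (SE 0.09, adjusted p = 0.787) and -0.04 in NNK+SECY against NNK mice (SE 0.09, adjusted p = 0.924). The 95% interval of the first was -0.34 to 0.05. The remaining SoxF gene, Sox7, is not one of the 10. Its brighter probe (A_51_P476018) read -0.51, -0.11, -0.15 and -0.20 in NNK+SECY mice and -0.26, -0.47, -0.04 and -0.09 in SECY mice, against 0.17, -0.13, 0.33 and 0.45 in NNK mice and 0.29, 0.06, 0.36 and 0.08 in Untreated mice. Its differences were -0.41 in SECY against Untreated mice (SE 0.12, adjusted p = 0.234) and -0.45 in NNK+SECY against NNK mice (SE 0.12, adjusted p = 0.106), and neither passed. Its other probe gave -0.22 and -0.21.

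Among the contact proteins, Pecam1 (chromosome 11) had 2 probes. Probe 1 read -0.19, -0.10, 0.00 and 0.09 in NNK+SECY mice and -0.12, -0.24, 0.02 and -0.12 in SECY mice, against -0.15, 0.13, 0.17 and 0.15 in NNK mice and -0.07, 0.15, 0.23 and -0.06 in Untreated mice. The groups overlapped, with differences of -0.18 in SECY against Untreated (SE 0.09, adjusted p = 0.657) and -0.12 in NNK+SECY against NNK mice (SE 0.09, adjusted p = 0.711). At its dimmer probe 2 the differences were -0.01 and -0.02. Cdh5, the VE-cadherin that holds endothelial cells together (chromosome 8), differed at probe 1 by -0.12 in SECY against Untreated (SE 0.08) and by -0.09 in NNK+SECY against NNK mice (SE 0.08). Its probe 2 gave -0.06 and -0.10, with all groups overlapping at both probes. Cldn5, the tight-junction claudin of endothelium (chromosome 16), read -0.05, 0.18, 0.06 and 0.15 in NNK+SECY mice and -0.11, 0.14, -0.14 and -0.29 in NNK mice. These groups overlapped, and the difference of 0.19 (SE 0.09, 95% interval 0.00 to 0.37) had an adjusted p of 0.497. It was 0.06 in NNK+SECY against Untreated mice (SE 0.09, adjusted p = 0.936) and 0.06 in SECY against Untreated mice (SE 0.09, adjusted p = 0.94).

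Of the receptors, Kdr (chromosome 5) read at probe 1 0.14, -0.09, 0.23 and 0.10 in NNK+SECY mice, 0.20, -0.14, 0.08 and -0.06 in SECY mice, 0.14, 0.20, 0.11 and 0.31 in NNK mice and 0.09, -0.06, 0.09 and 0.05 in Untreated mice. Every NNK mouse lay above every Untreated mouse, as at 2.11% of tested probes, with a difference of 0.15 (SE 0.08, adjusted p = 1). In SECY against Untreated mice it differed by -0.02 (SE 0.08, interval -0.18 to 0.14) and in NNK+SECY against NNK mice by -0.10 (SE 0.08, interval -0.26 to 0.07). A second Kdr probe was not well above background on any array and was not tested.

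Tek (chromosome 4) had 2 probes that disagreed in size, and in sign between NNK+SECY and NNK mice. Probe 1 differed by -0.14 in SECY against Untreated (SE 0.08, adjusted p = 0.692) and by 0.05 in NNK+SECY against NNK mice (SE 0.08). In NNK+SECY against Untreated mice probe 1 differed by -0.02 (SE 0.08). In NNK+SECY against NNK mice probe 2 differed by -0.08 (SE 0.15). Probe 2, of another transcript record, read -0.33, -0.08, -0.69 and 0.04 in NNK+SECY mice and -0.49, -0.19, -0.37 and 0.00 in SECY mice, against -0.41, -0.30, 0.09 and -0.11 in NNK mice and -0.25, 0.12, 0.19 and 0.16 in Untreated mice. Its differences from Untreated mice were -0.32 in NNK+SECY (SE 0.15, adjusted p = 0.566), -0.32 in SECY (SE 0.15, adjusted p = 0.631) and -0.24 in NNK mice (SE 0.15, adjusted p = 1). The spread within its groups was the widest of the 9 genes' probes, up to an SD of 0.32. Taken from the Cy5 level alone, probe 2 passed in NNK+SECY against Untreated mice, at -0.67 (adjusted p = 0.0215). The pool, the same RNA on every array, differed by -0.34 at this probe in that comparison.

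Eng (endoglin, chromosome 2), whose 1 probe had no value on the array of SECY 2 because the spot was marked as an outlier, read -0.42, -0.38, -0.44 and -0.32 in NNK+SECY mice and -0.38, 0.09 and -0.08 in SECY mice. It read -0.33, -0.30, -0.29 and -0.19 in NNK mice and -0.58, -0.30, -0.02 and -0.39 in Untreated mice. The Untreated ratios were thus all negative, although the pool was made of these same mice. The sign of a ratio at this probe therefore does not place a mouse above or below the pool. Only differences between groups were read. The difference of SECY from Untreated mice was 0.20 (SE 0.11, adjusted p = 0.733) and that of NNK+SECY from NNK mice was -0.11 (SE 0.10, adjusted p = 0.804).

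Vwf (chromosome 6) read at probe 1 -0.21, 0.11, 0.13 and -0.02 in NNK+SECY mice and -0.25, -0.28, 0.04 and -0.12 in SECY mice, against -0.12, 0.18, 0.07 and -0.13 in NNK mice and -0.07, 0.03, 0.14 and 0.36 in Untreated mice. The difference of SECY from Untreated mice was -0.27 (SE 0.10, adjusted p = 0.461), with overlapping groups, and that of NNK+SECY from NNK mice was 0.00 (SE 0.10). Probe 2 gave -0.14 and -0.08, and from the Cy5 level alone it passed in SECY against Untreated mice, at -0.32 (adjusted p = 0.0417). The pool differed by -0.19 at probe 2 in that comparison. Vwf probe 3 was above background on 3 arrays and was not tested. Prox1 (chromosome 1) was dim at all 3 probes, with mean raw Cy5 signals of 72.3, 64.7 and 53.8. Its probe 1 read 0.02, 0.05, 0.34 and 0.03 in NNK+SECY mice and -0.07, -0.08, -0.03 and -0.10 in NNK mice. These groups did not overlap in the higher direction, as at 3.49% of tested probes, but the difference of 0.18 (SE 0.06) had an adjusted p of 0.311. Probes 2 and 3 gave -0.02 and 0.04.

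**Figure D3:**
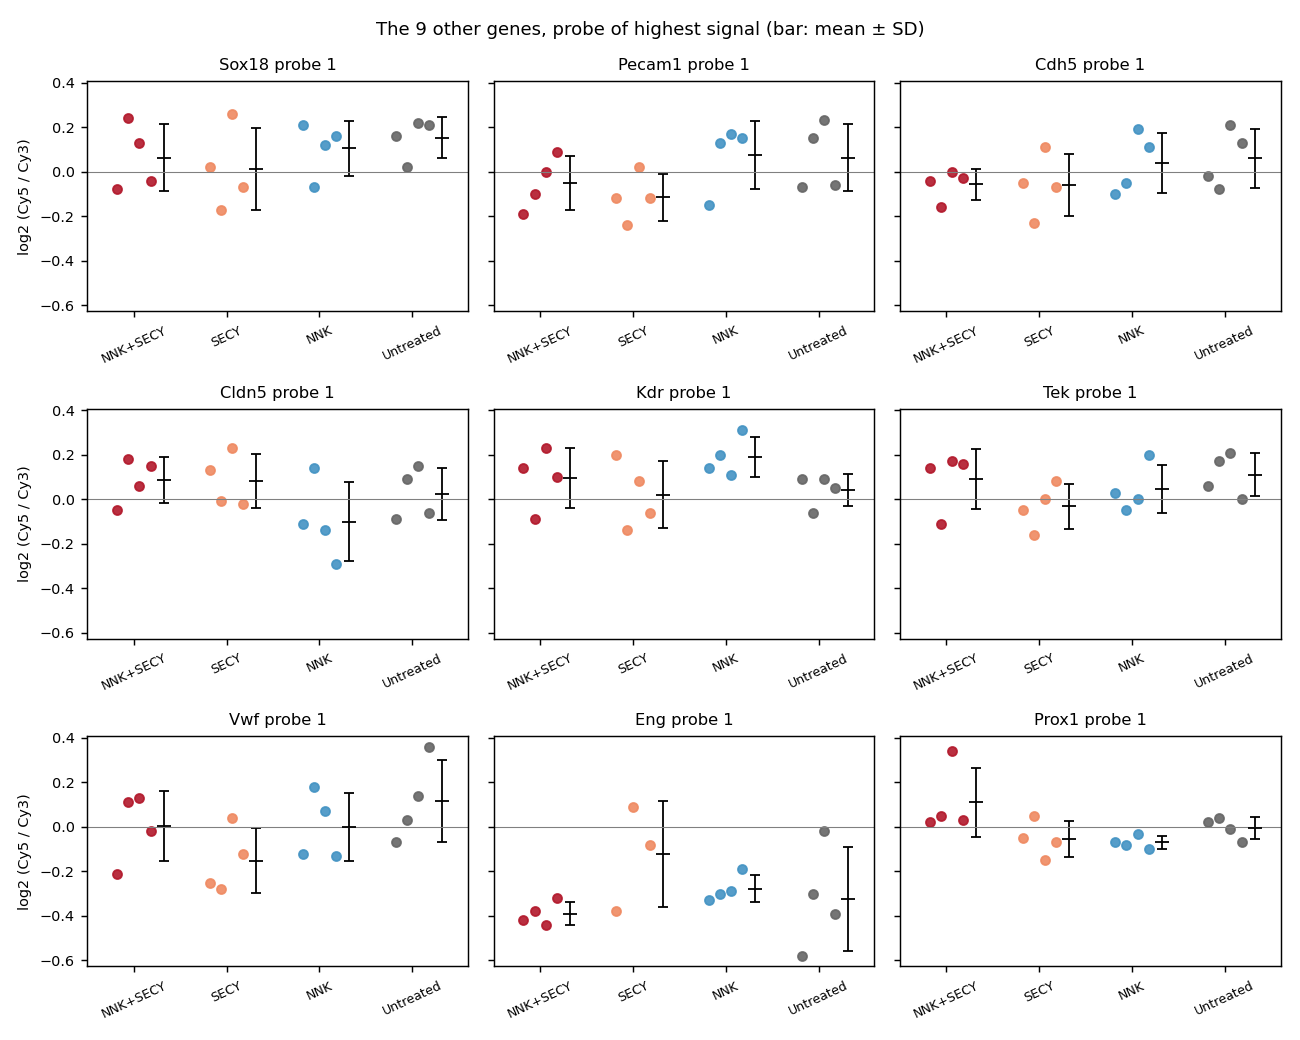
Log2(Cy5/Cy3) (vertical axes, log2 units) of the 9 other genes at the probe of highest signal, by group; each point is 1 mouse and the bar is the mean ± SD of the mice with a value. The 4 groups overlap at most genes, and Eng lies below 0 in 14 of its 15 values.

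Over the 19 tested member probes the SECY minus Untreated differences ran from -0.41 at Sox17 probe 1 to 0.20 at Eng, with a median of -0.06 and 16 of 19 below 0, where the median over all tested probes was -0.004. Over the 15 probes of the other genes, the NNK+SECY minus NNK differences ran from -0.12 at Pecam1 probe 1 to 0.19 at Cldn5, with a median of -0.04 and 10 below 0, where the median over all probes was 0.002. These 2 comparisons share no array, but both set slides 5 to 8 against slides 1 to 4.

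**Figure D4:**
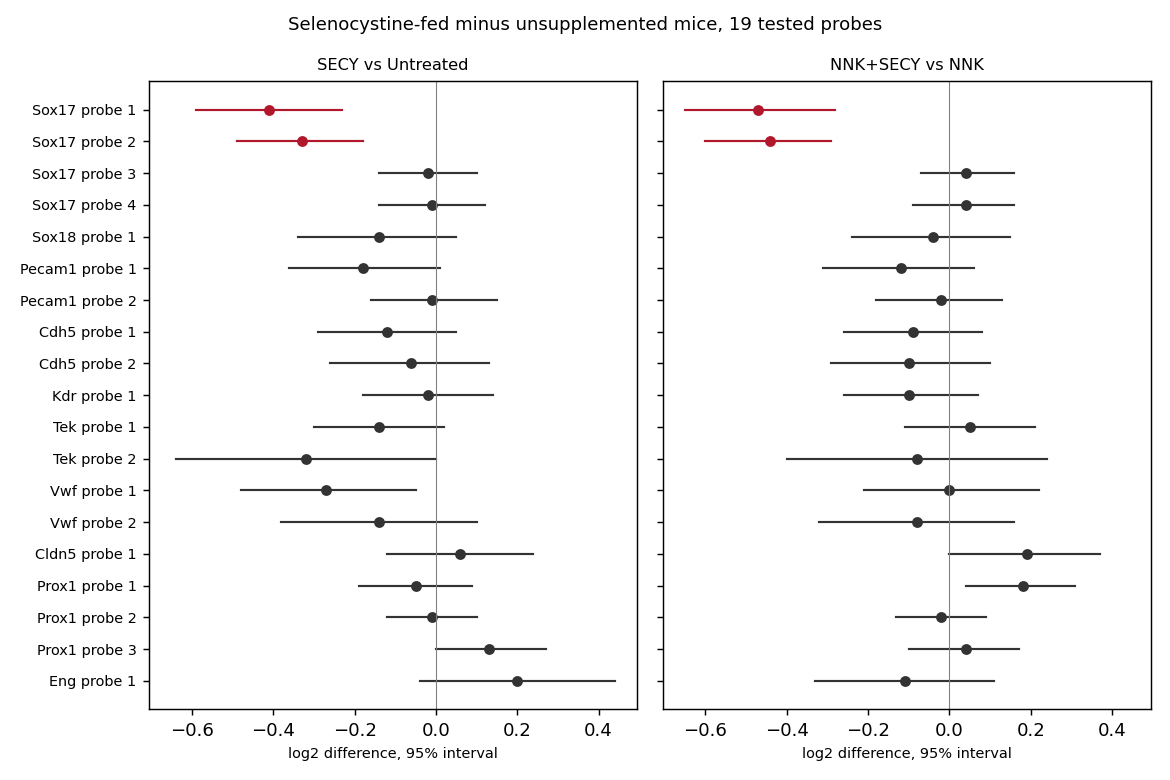
Log2 differences (horizontal axes) with their 95% intervals for the 19 tested member probes, SECY minus Untreated on the left and NNK+SECY minus NNK on the right; Sox17 probes 1 and 2 are in red and were chosen on the second difference. Probe 1 lies at -0.41 and -0.47, and the intervals of most other genes' probes hold 0.

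Genes that work beside the 10 were read from 10 lists, of which 9 held genes of endothelium and 1 held genes of the Wnt pathway, whose beta-catenin arm SOX17 is known to restrain. The 9 endothelial lists held 121 genes with a tested probe in both diet comparisons, Sox17 apart. At the probe of highest signal, 97 of the 121 lay below 0 in SECY against Untreated mice, where 51.9% of all 21251 genes did. In NNK+SECY against NNK mice 78 did, where 51.1% of all genes did. The counts of each list below stand beside these same shares. In both comparisons 69 (57%) lay below 0, where 30.4% of all genes did. Both differences were below -0.2 for 14 of the 121 (11.6%), against 1.78% of all genes. Without SECY 2 that count was 9 (7.44%, against 1.56% of all genes), and with the Cy5 level alone it was 22 (18.2%, against 4%). These are counts with no test, since the lists were made with earlier results of these data known. Nor were such shares particular to endothelium among the cell type marker lists described below. Of 8 mesothelial genes 87.5% lay below 0 in both, and of 10 fibroblast genes 80%, but of 10 ciliated genes 20% and of 8 alveolar type 1 genes 25%. Below -0.2 in both lay 30% of the fibroblast and 25% of the mesothelial genes, and 0% of the ciliated and alveolar type 1 genes.

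In the arterial and Notch list, all 16 of its genes lay below 0 in SECY against Untreated mice (median -0.13), 9 (56.2%, against 51.1% of all genes) did so in NNK+SECY against NNK mice (median -0.06), and 5 were below -0.2 in both, namely Cxcl12, Gja4, Unc5b, Gja5 and Heyl. None passed the test. Unc5b, a netrin receptor of arterial and tip endothelium, read -0.47, -0.63, -0.36 and -0.51 in NNK+SECY mice and -0.41, -0.83, -0.28 and -0.24 in SECY mice, against -0.02, 0.26, -0.04 and -0.10 in NNK mice and 0.31, -0.21, -0.14 and 0.07 in Untreated mice. Every selenocystine-fed mouse lay below every other mouse, with the highest SECY mouse at -0.24 and the lowest Untreated mouse at -0.21. SECY mice lay wholly below Untreated mice at 2.17% of tested probes, and NNK+SECY mice wholly below NNK mice at 4.6%. The Unc5b difference was -0.52 in NNK+SECY against NNK (SE 0.13, adjusted p = 0.0534) and -0.45 in SECY against Untreated mice (SE 0.13, adjusted p = 0.195). Gja4, connexin 37 of arterial gap junctions, differed by -0.72 (SE 0.20, adjusted p = 0.0931) and -0.47 (SE 0.20, adjusted p = 0.528), with Untreated mice spread from -0.61 to 0.41. Gja5, connexin 40, had differences of -0.30 (SE 0.09, adjusted p = 0.192) and -0.29 (SE 0.09, adjusted p = 0.294) at its brightest probe, while its 3 other probes lay between -0.07 and 0.02 in these comparisons. Cxcl12, a chemokine, differed by -0.62 (SE 0.21, adjusted p = 0.234) and -0.71 (SE 0.21, adjusted p = 0.217) at its brighter probe, and by -0.01 and -0.23 at its other one. Heyl, a Notch target, differed by -0.26 and -0.24 at its brighter probe and by -0.08 and -0.13 at its other one. Efnb2, the arterial ephrin, differed by -0.40 in SECY against Untreated mice (SE 0.11, adjusted p = 0.162) and by -0.10 in NNK+SECY against NNK mice.

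The venous and lymphatic list had 8 of 11 genes below 0 in SECY against Untreated mice and 3 of 11 in NNK+SECY against NNK mice (medians -0.04 and 0.02). The alveolar capillary list had 10 and 12 of 12 genes below 0 (medians -0.17 and -0.07), with Car4, the carbonic anhydrase of the lung capillary, at -0.21 (SE 0.08, adjusted p = 0.483) and -0.32 (SE 0.08, adjusted p = 0.0717). Car4 is also counted among the alveolar macrophage markers below. In the list of secreted and clotting genes, 13 and 12 of 15 lay below 0 (medians -0.10 and -0.11). Tfpi, the tissue factor pathway inhibitor, was at -0.51 in NNK+SECY against NNK mice (SE 0.13, adjusted p = 0.0607), but its other probe was at 0.01. Procr, the endothelial protein C receptor, was at 0.29 there (SE 0.08, adjusted p = 0.0735). Other endothelial transcription factors had 13 and 8 of 15 genes below 0 (medians -0.13 and -0.01), and the list of growth factor ligands and receptors had 13 of 17 in each (medians -0.10 and -0.10), with Nrp1, a co-receptor of Kdr, at -0.32 in SECY against Untreated mice (SE 0.07, adjusted p = 0.0571). Of the 17 genes around endoglin and BMP signalling, 12 and 10 lay below 0 (medians -0.05 and -0.03). Tmem100, an endothelial gene of that pathway listed under an older name in the files, was at -0.32 in SECY against Untreated (SE 0.07, adjusted p = 0.0558) and at 0.02 in NNK+SECY against NNK mice at its dimmer probe. At its brighter probe it was at -0.18 (adjusted p = 0.531) and -0.07.

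Over all 10 lists and 6 comparisons, 3 genes passed limma's test, each in a comparison with NNK+SECY mice and each lower. These were 3 of the 222 list probes (1.35%) in NNK+SECY against Untreated mice, where 1.44% of all probes passed, and 1 of 222 (0.45%) against NNK mice, where 1.56% did. Icam2, an adhesion molecule of resting endothelium, fell in NNK+SECY mice to -0.40, -0.12, -0.18 and -0.13, against 0.08, 0.03, 0.19 and 0.22 in Untreated mice (difference -0.33, SE 0.07, adjusted p = 0.0185). The groups did not overlap, as at 3.45% of tested probes in the lower direction. It did not pass without Untreated 3 (adjusted p = 0.0724), Untreated 4 (0.0752) or NNK+SECY 1 (0.0624), nor from the authors' processed signals (0.0626). Its Cy5 level differed by -0.57 and the pool's by -0.24. Icam2 also differed from Untreated mice by -0.23 in SECY (SE 0.07, adjusted p = 0.231) and by -0.14 in NNK mice (SE 0.07). Between NNK+SECY and NNK mice the Icam2 difference was -0.19 (SE 0.07, adjusted p = 0.295), and none of these passed. Bmper, a secreted BMP modulator, fell in NNK+SECY mice to -0.26, -0.29, -0.29 and -0.21, against -0.19, 0.08, 0.12 and 0.03 in Untreated mice (difference -0.27, SE 0.06, adjusted p = 0.0452), and its other probe was at -0.30. Leaving out any array other than Untreated 1, SECY 1 or SECY 3 ended that call, with adjusted p up to 0.171. Between NNK+SECY and NNK mice Bmper differed by -0.18 (SE 0.06, adjusted p = 0.286). From Untreated mice it differed by -0.11 in SECY (SE 0.06, adjusted p = 0.762) and by -0.09 in NNK mice (SE 0.06).

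In the Wnt list, with 9 of 16 genes below 0 in each diet comparison, the R-spondin receptor Lgr4 (named Gpr48 in the files) fell at 1 of its 3 probes. That probe read -1.39, -1.03, -1.38 and -1.70 in NNK+SECY mice and 0.02, -1.20, -1.05 and -1.39 in SECY mice, against 0.47, 0.29, -0.20 and 0.13 in NNK mice and 0.28, -0.01, 0.23 and -0.27 in Untreated mice. NNK+SECY mice lay wholly below NNK mice, as at 4.6% of tested probes, and wholly below Untreated mice, as at 3.45%. SECY 1 lay among the mice without selenocystine. The difference of NNK+SECY was -1.55 from NNK (SE 0.24, adjusted p = 0.00154) and -1.43 from Untreated mice (SE 0.24, adjusted p = 0.00522), and that of SECY from Untreated mice was -0.96 (SE 0.24, adjusted p = 0.119). The other 2 Lgr4 probes differed by -0.01 and 0.06 between NNK+SECY and NNK mice.

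**Figure D5:**
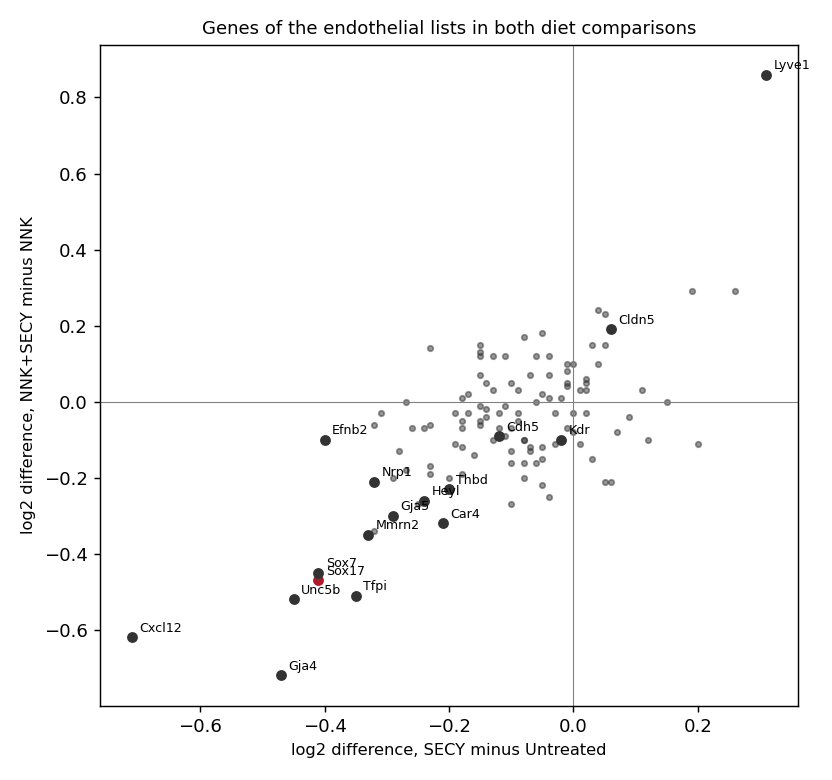
Log2 difference of SECY minus Untreated (horizontal axis) and of NNK+SECY minus NNK (vertical axis) for the genes of the endothelial lists; each point is 1 gene at its probe of highest signal and Sox17 is in red. Of 121 genes other than Sox17, 69 lie below 0 on both axes, with Gja4, Unc5b, Cxcl12, Tfpi and Sox7 nearest to Sox17 or beyond it.

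The genes whose pattern over the 16 arrays was most like that of Sox17 probe 1 were Sparc, a matrix glycoprotein (Pearson r = 0.93), Unc5b (r = 0.93), the proprotein convertase Pcsk5 (r = 0.91) and the endocytic adaptor Hip1 (r = 0.89). They were followed by Sdc4, a heparan sulphate proteoglycan (r = 0.89), Gja4 (r = 0.88), Ntrk2, a neurotrophin receptor (r = 0.88), and Chst3, a chondroitin sulfotransferase (r = 0.88). Over 30071 tested probes the median r was 0.00, the 90th percentile 0.44 and the 99th 0.78, and all of these arrays share the same pool and the split between slide sets. A second probe also followed Sox17 for Sparc (r = 0.84) and both other probes did for Ntrk2 (0.88 and 0.76). It did not for Sdc4 (-0.03), and the other probes of Pcsk5 and Hip1 gave -0.44 to 0.38. The members themselves ranked far lower, with r of 0.53 at Cdh5 probe 1, 0.50 at Pecam1 probe 1, 0.49 at Sox18 and 0.46 at Kdr, and Cldn5 at -0.34.

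Of 15 lists of cell type markers, 13 had a median below 0 in SECY against Untreated mice and 10 in NNK+SECY against NNK mice, with no test of the lists. Of 14 endothelial markers, 11 lay below 0 in SECY against Untreated (median -0.11) and 9 in NNK+SECY against NNK mice (median -0.09). Their mean ratio per array ran from -0.08 to -0.01 in NNK+SECY, -0.16 to -0.04 in SECY, -0.09 to 0.09 in NNK and -0.08 to 0.06 in Untreated mice. Fibroblast markers lay below 0 for 10 and 8 of 10 genes (medians -0.14 and -0.21), with means per array of -0.34 to -0.09 in NNK+SECY, -0.23 to -0.13 in SECY, -0.12 to 0.06 in NNK and -0.13 to 0.05 in Untreated mice. Alveolar type 2 markers lay below 0 for 9 and 7 of 10 genes (medians -0.13 and -0.04), and ciliated cell markers for 2 and 3 of 10 (medians 0.07 and 0.04). Mesothelial markers lay below 0 for 7 and 8 of 8 genes (medians -0.09 and -0.18) and smooth muscle markers for 6 and 8 of 8 (medians -0.04 and -0.13). List medians ran from -0.17, in alveolar macrophage markers, to 0.07 in SECY against Untreated mice, and from -0.21 to 0.12, in lymphatic endothelial markers, in NNK+SECY against NNK mice.

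Beside Icam2, 6 marker genes passed the test at a probe. Of all tested probes, 1.44% passed in NNK+SECY against Untreated and 1.56% in NNK+SECY against NNK mice. The shares were 0.283% in SECY and 0.211% in NNK against Untreated mice. The share of marker probes that passed was not counted, so the 6 genes are not set against these shares. The fibroblast gene Mfap4, of elastic microfibrils, fell in NNK+SECY mice, by a difference of -0.87 from NNK (SE 0.17, adjusted p = 0.012) and -0.73 from Untreated mice (adjusted p = 0.0465), and so did the collagen Col14a1, at -0.29 from Untreated mice (SE 0.06, adjusted p = 0.0315). Smooth muscle actin, Acta2, fell at 1 of its 4 probes, by -0.35 from Untreated (SE 0.06, adjusted p = 0.0066) and -0.27 from NNK mice (adjusted p = 0.0265), and its other probes were at -0.19 to 0.00. Aldh1a1, a retinal dehydrogenase among the club cell markers, rose by 0.74 in NNK+SECY against Untreated (adjusted p = 0.000232), 0.58 against NNK (adjusted p = 0.00123) and 0.73 in SECY against Untreated mice (adjusted p = 0.000794). The basal keratin Krt15, counted in the same list, rose in NNK+SECY against Untreated (0.89, adjusted p = 0.000624) and in NNK against Untreated mice (0.58, adjusted p = 0.0436). The club list as a whole did not rise with them. Of its 8 genes, 4 lay below 0 in NNK+SECY against Untreated mice (median 0.04) and 4 against NNK mice (median 0.00). In SECY against Untreated mice 3 did (median 0.04), and in NNK against Untreated mice 1 did (median 0.02). The T cell receptor subunit Cd3e was lower in NNK+SECY than in NNK mice (-0.36, adjusted p = 0.0201) and higher in NNK than in Untreated mice (0.44, adjusted p = 0.0228) at 1 of its 2 probes, and its other probe was at 0.05 and 0.03. The part of these shifts in the Sox17 values was not tested.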

How the data were processed

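Lung RNA of 16 mice was measured on 16 2-colour Agilent arrays of 43790 spots, 41534 of them non-control. Per the file headers, the authors' image software was Feature Extraction 8.1.1.1. In the deposited files each spot has linear intensity values for signal and background per dye, processed signals, and a log10 ratio (red over green). The deposited series values are log2 ratios; they match the files' log10 ratios within 0.005 after conversion, with a median of 0 in every column. Arrays have no read depth, and their number limits the precision.

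Here intensities were corrected with normexp (offset 50) and loess-normalized within arrays (limma 3.58.1, R 4.3.3). Control spots had weight 0 and spots marked as outliers no value, and spots of 1 probe were averaged. Cy5 and Cy3 levels were scaled between arrays (Aquantile). Tested probes were those with Cy5 well above background throughout at least 1 group of 4. One limma fit of 4 group means gave 6 comparisons, with p-values adjusted over all tested probes by Benjamini-Hochberg and a threshold of 0.05. The procedure was tested on simulated data. The 28 alternatives are given at the end.

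Members and lists were chosen with earlier results of these data known. All members are named. From each list the text names genes that passed and, where none did, up to 2 with the smallest p in a comparison. The 8 genes most like Sox17 were ranked by Pearson r. Heyl and Cxcl12, the cell type marker genes with values, and the genes labelled in the scatter plot were chosen after their values were seen. Older gene names were updated through RefSeq. No sequences are shown.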

Additional observations from a re-analysis of the deposited data

Results flagged for a closer look

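Of 75 sets of 4 values checked among the member probes, 6 held 1 mouse far from the other 3, and about 1 in 20 would by chance. At Sox17 probe 1, NNK 2 read 0.12, and the other NNK mice -0.02 to 0.00. At Pecam1 probe 1, NNK 1 read -0.15, and the other NNK mice 0.13 to 0.17. At Pecam1 probe 2, SECY 1 read 0.17, and the other SECY mice -0.08 to -0.06. At Tek probe 1, NNK+SECY 2 read -0.11, and the others of its group 0.14 to 0.17. At Tek probe 2, Untreated 1 read -0.25, and the other Untreated mice 0.12 to 0.19. At Prox1 probe 1, NNK+SECY 3 read 0.34, and the others of its group 0.02 to 0.05.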

How the results depend on the processing

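In SECY against Untreated mice, 0 of 19 member probes passed; 1 did (Sox17 probe 1) without background subtraction, with median centring or with the replicate block (adjusted p = 0.0476, against 0.0559 without it), 2 with array weights, 3 with the Cy5 level alone (Sox17 probes 1 and 2 and Vwf probe 2), and 0 to 2 when 1 array was left out. In NNK+SECY against Untreated mice, 0 passed, and 1 (Tek probe 2) with the Cy5 level alone. The Sox17 probe 1 difference between NNK+SECY and Untreated mice was -0.40, and -0.24 with the Cy5 level alone. Endothelial genes below -0.2 in both diet comparisons numbered 14, 22 with the Cy5 level alone, and 9 to 17 when 1 array was left out. The cause was not tested. Over the alternatives run, the SECY difference of Sox17 probe 1 lay between -0.48 and -0.26 and passed in 8 of 28, and that of probe 2 lay between -0.51 and -0.27 and passed in 5 of 27. Deviations of same-numbered mice had 24 correlations of -0.14 to 0.49. Of these, 10 were above 0.1, with replicate 1 so in all 6 pairs of groups (0.21 to 0.47), while replicate 4 of NNK and Untreated mice had -0.02 and that of SECY and Untreated mice -0.10. The numbers were therefore not taken to pair the mice. The replicate block changed no other count of member probes that passed. Of the values for single probes under the alternatives, 15 passed only there, 22 (Icam2 and Bmper) no longer passed, 79 moved by more than the spread between mice, and 0 were reversed. The difference of Icam2 kept its sign in all 28 alternatives and passed in 22, and Lgr4 passed in all 28 in both comparisons. Signal near background limits what Sox17 probes 3 and 4 and the 3 Prox1 probes can show.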
